A study of Mus musculus with 16 samples.

Results

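The long RNA polymerase II domains of mouse clear cell sarcoma tumors were described here, namely the stretches of at least 5 kb that the RNAPOL2 peak list marks as a continuous peak. They were chosen by width alone, as peaks whose end minus start was 5000 bp or more, and 736 of 20375 RNAPOL2 peaks met this rule (3.61%, Wilson 95% interval 3.36 to 3.88). The tumors arose in mice of mixed 129/SvJ and C57Bl/6 background that carried a V5-tagged human EWSR1::ATF1 cDNA at Rosa26 behind a loxP-flanked stop cassette, and the fusion was switched on by TATCre protein injected into a limb at 4 weeks of age. All 16 libraries came from tumors of that genotype, with 4 for V5, 4 for RNAPOL2, 4 for H3K27ac and 4 inputs, so that no sample without the fusion was compared. Any cell that took up the recombinase could express the fusion from this locus. The deposited data are 1 peak list for each antibody, with a position and a score for each peak and no value for a separate library. No spread between tumors can therefore be given, no test was run, and the intervals below cover counting error only.

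RNA polymerase II is recruited to a promoter, initiates and often pauses shortly after the start site, and is then released to elongate through the gene and past the site of cleavage and polyadenylation before it terminates. Its largest subunit carries a long repeated tail that is phosphorylated in different patterns along this cycle, and the RNAPOL2 antibody used here recognises a phosphorylated form. At most genes a ChIP peak marks only the start site, and a broad domain is read where polymerase is dense over a long stretch. H3K27ac is an acetylation of histone H3 at active promoters and enhancers. EWSR1::ATF1, the fusion that drives clear cell sarcoma, fuses amino-terminal EWSR1 sequence with the carboxy-terminal region of ATF1, a CREB family factor that binds DNA at the cyclic AMP response element.

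The domains were 7155 bp wide at the median, with quartiles of 5838 and 10302 bp and a largest width of 113730 bp. Of the 736, 197 reached 10000 bp, 48 reached 20000 bp and 8 reached 50 kb. They made up 7.15 Mb, or 23.2% of all bases in the RNAPOL2 list. Wide domains were not all high in score: the median score was 344 in the long domains and 246 in the narrower peaks, 158 of the 736 lay in the upper 10% of the list by score and 288 lay in its lower 50%. Width and score both come from the list that chose the members and are given as a description. The 3 domains just inside the threshold, all 5000 bp wide, lay at Epha2, Ccdc60 and Zfp316 with scores of 212, 306 and 88. The 3 just outside, all 4990 bp wide, lay at Fastk, Sema4f and Irf3 with scores of 127, 117 and 196, and the scores on the 2 sides of the rule overlapped.

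Sequences are shown for 3 kinds of item that the domains hold. Several domains run over microRNA precursors, and mature products of these are printed so that shared seeds can be seen. These are RefSeq sequences on GRCm38.p6, written 5′ to 3′ with the seed, bases 2 to 8, in capitals.
let-7b-5p: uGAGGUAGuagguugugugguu
let-7c-5p: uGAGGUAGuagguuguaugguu
let-7d-5p: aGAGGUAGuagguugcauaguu
let-7i-5p: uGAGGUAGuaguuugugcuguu
miR-29a-3p: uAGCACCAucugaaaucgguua
miR-29b-3p: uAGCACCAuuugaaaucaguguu
miR-27a-3p: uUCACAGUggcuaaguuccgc
miR-27b-3p: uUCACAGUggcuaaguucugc
miR-24-3p: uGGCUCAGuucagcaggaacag
miR-21a-5p: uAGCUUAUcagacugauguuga
miR-199a-5p: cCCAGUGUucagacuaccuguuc
miR-214-3p: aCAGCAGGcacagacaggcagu
The 4 let-7 members share the seed GAGGUAG and come from 3 domains on 3 chromosomes. miR-29a and miR-29b share AGCACCA and lie in 1 domain, whereas miR-27a and miR-27b share UCACAGU and come from separate clusters on chromosomes 8 and 13, each of which also holds a precursor of miR-24.

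Another set is of V5 peaks inside long domains. Of the 6 with the highest V5 scores that held the full cyclic AMP response element TGACGTCA, the highest, at Crem with a score of 5143, is not printed, and the other 5 are given as the motif in capitals with 30 bases on either side, from the plus strand of GRCm38.
Pde4d, chr13:109761177-109761244: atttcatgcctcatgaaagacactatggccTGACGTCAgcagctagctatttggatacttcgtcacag
Arhgef10, chr8:14961687-14961754: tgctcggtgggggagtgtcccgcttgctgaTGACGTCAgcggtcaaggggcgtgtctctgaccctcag
Pde4d, chr13:109951577-109951644: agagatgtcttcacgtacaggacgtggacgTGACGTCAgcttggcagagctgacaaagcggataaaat
Mtch1, chr17:29342280-29342347: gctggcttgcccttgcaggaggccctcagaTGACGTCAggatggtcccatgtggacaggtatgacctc
Sik1, chr17:31856006-31856073: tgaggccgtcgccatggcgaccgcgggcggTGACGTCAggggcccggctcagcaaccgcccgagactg
The first 3 motifs lay 75051, 16416 and 16295 bp from the nearest coding start site. The motif at Mtch1 lay 1820 bp and that at Sik1, a kinase gene of the cyclic AMP pathway, 232 bp from one. Each name is the coding gene assigned to the domain, as defined next.

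The third set is of promoters, from 250 bases before to 50 bases after the start site, given by RefSeq on GRCm38.p6 and written on the strand of the gene. The 3 shown are those with the highest V5 scores among promoters that lie inside a long domain and under a V5 peak and hold TGACGTCA, in capitals.
Myl6, chr10:128493837-128494136: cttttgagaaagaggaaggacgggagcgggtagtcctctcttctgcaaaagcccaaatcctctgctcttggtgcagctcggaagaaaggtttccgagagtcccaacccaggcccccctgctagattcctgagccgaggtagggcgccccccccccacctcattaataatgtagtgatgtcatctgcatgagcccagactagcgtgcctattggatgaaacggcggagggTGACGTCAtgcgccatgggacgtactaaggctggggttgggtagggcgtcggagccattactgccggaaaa
Dusp1, chr17:26508423-26508722: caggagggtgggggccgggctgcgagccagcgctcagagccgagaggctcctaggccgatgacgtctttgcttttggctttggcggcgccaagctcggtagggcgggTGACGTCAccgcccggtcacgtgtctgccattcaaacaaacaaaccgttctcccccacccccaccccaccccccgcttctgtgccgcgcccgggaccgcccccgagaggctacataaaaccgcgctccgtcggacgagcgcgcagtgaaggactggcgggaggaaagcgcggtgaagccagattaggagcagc
Errfi1, chr4:150854820-150855119: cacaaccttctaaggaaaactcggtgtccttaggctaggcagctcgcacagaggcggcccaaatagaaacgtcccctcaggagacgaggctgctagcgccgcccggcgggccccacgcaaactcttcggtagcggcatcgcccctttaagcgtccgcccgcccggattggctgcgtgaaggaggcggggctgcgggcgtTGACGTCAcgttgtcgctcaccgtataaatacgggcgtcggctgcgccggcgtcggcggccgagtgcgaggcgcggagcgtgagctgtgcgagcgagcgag
The V5 scores were 1128 at Myl6, a myosin light chain gene, 931 at Dusp1, a phosphatase of MAP kinases, and 759 at Errfi1, an inhibitor of the EGF receptor family. The motif began 21, 143 and 51 bases before the RefSeq start site, and the RNAPOL2 domains were 5930, 7690 and 20700 bp wide. A match of letters is a description of the window and does not show where the fusion bound.

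Each domain was given a main gene from the GENCODE vM21 annotation (mm10), namely the coding gene with a start site inside the domain or, failing that, the coding gene sharing most bases with it. By this rule 679 domains fell on 500 coding genes, which is 2.28% of the 21938 coding genes annotated and, for the 487 of them with RNAPOL2 at a start site, 4.42% of the 11027 coding genes with such a peak. In 286 domains at least 1 coding start site lay inside (38.9%, interval 35.4 to 42.4), and 121 of these covered a coding gene from start to end (16.4% of all domains, interval 13.9 to 19.3). The other 165 held a start site but no whole gene. Another 179 lay within the gene body, 214 held the end of the gene without a start site, and 57 touched no coding gene.

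The score comes from the same peaks as the width and differed by place: the median was 3415 in domains over a whole gene, 1232 in those at a start site, 157 in those within a gene body, 246 in those past a gene end and 395 where no coding gene lay. The widths differed less, with medians of 8300, 7240, 7360, 6735 and 6220 bp. Of the 393 domains on a coding gene but without a start site, 379 were on a gene that also had RNAPOL2 at a start site.

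**Figure D1:**
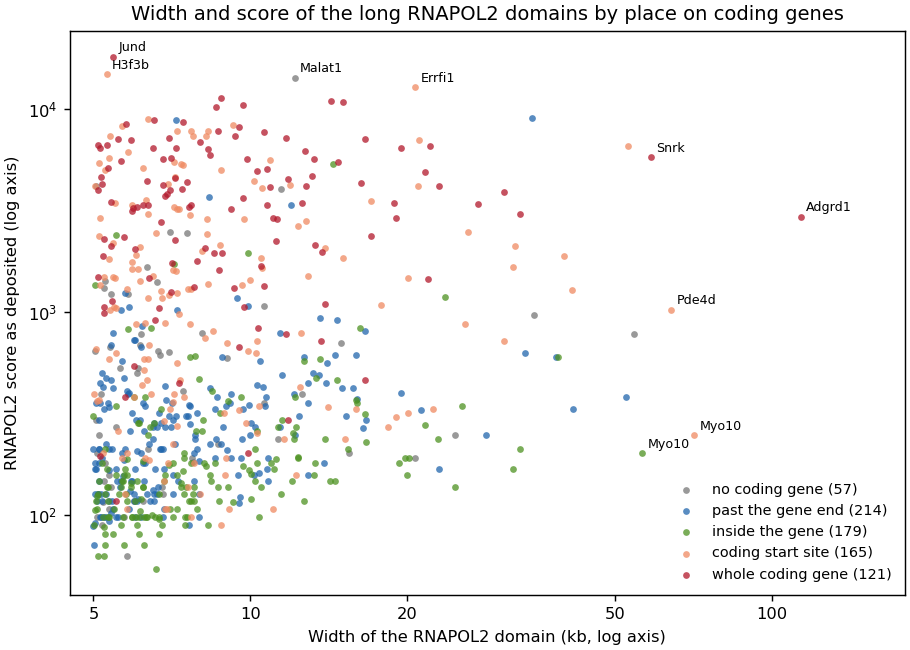
Each point is 1 of the 736 long RNAPOL2 domains, with its width in kb on the x axis and its deposited RNAPOL2 score on the y axis (both log axes), coloured by its place on coding genes; the 5 widest and the 4 highest in score are named. Scores reach 18012 at Jund in a domain over a whole coding gene, and the medians are 157 inside a gene and 246 past its end.

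A domain covered 17.5% of its main gene at the median, with quartiles of 6.21% and 51.9%, and 122 of 679 covered at least 90% while 242 covered under 10%. The genes taken whole were short. In all 128 coding genes lay whole within a domain, 6 domains held 2 or more of them, and their median length was 3993 bp against 17425 bp for all coding genes. When only RNAPOL2 peaks of the upper 50% by score were kept, the share of domains with a whole gene was 26.3% and the median share of the main gene covered was 31.6%.

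The 5 longest genes inside a domain from start to end were Adgrd1, Snrk, Ccnd2, Plat and Fosl2. Adgrd1, an adhesion G protein-coupled receptor, spans 107850 bp and lay within the widest domain of all (chr5:129096361-129210090, 113730 bp, score 2936), which took in the annotated 5′ end and ran 5491 bp past the gene. Snrk, a serine/threonine kinase, lay within 58700 bp of RNAPOL2 with a score of 5785 that extended 5948 bp past the gene end. Cyclin D2 (Ccnd2), a driver of the passage through G1, was covered by a domain of 32940 bp, the plasminogen activator Plat by 30660 bp and the AP-1 subunit Fosl2 by 27370 bp. These 5 were the whole genes of 20 kb or more.

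Myo10 and Mdfic accounted for 5 of the 10 widest domains. Myo10, the unconventional myosin of filopodia, was divided among 5 long domains of up to 71080 bp that together covered 99.3% of its 191149 bp, and only 260 to 400 bp separated one from the next. Mdfic, which encodes a transcriptional regulator with a MyoD family inhibitor domain, had 2 domains of 52580 and 41480 bp, and the former ran 15481 bp past the gene end. A domain of 64200 bp lay at the 3′ part of Pde4d, a cyclic AMP phosphodiesterase gene of 1503514 bp of which it covered 4.27%. Nedd9, a scaffold protein of focal adhesions, had 52960 bp with a score of 6551, and the remaining one lay over the non-coding Lncpint gene.

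Of the 500 main genes, 77 had 2 or more long domains and together held 256 of them. They were long genes, with a median of 71701 bp against 15237 bp for genes with 1 domain, and a long gene has more room for separate domains. Of 179 neighbouring pairs on the same gene, 59 were 1000 bp or less apart, and joining all RNAPOL2 peaks up to 1000 bp apart, narrower ones included, gave 1052 domains. Pde4d had the most, 13, over 13.3% of the gene. Adarb1, which encodes an RNA-editing adenosine deaminase, had 11 over 65.9% of its 127545 bp. Itpr2, a calcium channel of the endoplasmic reticulum, and Zmiz1, a transcriptional co-activator, had 8 each, and the Src family kinase gene Fyn had 7. These 5 were named after their counts were seen.

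Near-complete coverage of a long gene was rare. Among 7662 coding genes of at least 30 kb, 21 had 80% or more of their length in RNAPOL2 peaks of any width, and all 21 were main genes of a long domain. The group included Myo10, Adarb1, Adgrd1, Auh (95.8% of 94563 bp), the vitamin C transporter gene Slc23a2 (94.4% of 92613 bp), the Hedgehog co-receptor gene Cdon (84.2% of 86525 bp) and Frmd6 (96% of 76721 bp). Fibronectin (Fn1) was at 97.7% of 67681 bp, the nuclear receptor gene Nr4a3 at 99.1% of 41295 bp and the collagen gene Col1a2 at 98.1% of 36731 bp. The median over the main genes of this length was 22.7%, and over the other genes 0.556%. Main genes were chosen by RNAPOL2 width, which has a direct part in this difference and in all 21 being main genes.

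H3K27ac covered these gene bodies very unequally. Fn1 had H3K27ac over 3.56% of its length, Rbm39, which encodes a splicing factor, over 4.12%, Nr4a3 over 9.78% and Uap1, an enzyme of amino sugar synthesis, over 12.4%. In contrast, Gypc was at 95.7%, Auh at 89.1%, Adgrd1 at 85.5% and Ampd3 at 82.9%, and the median of the 21 was 46.1%. The same range was seen over the 195 main genes with at least 50% of their length in long domains, where H3K27ac covered 55.6% at the median, under 20% in 32 genes and 80% or more in 65.

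**Figure D2:**
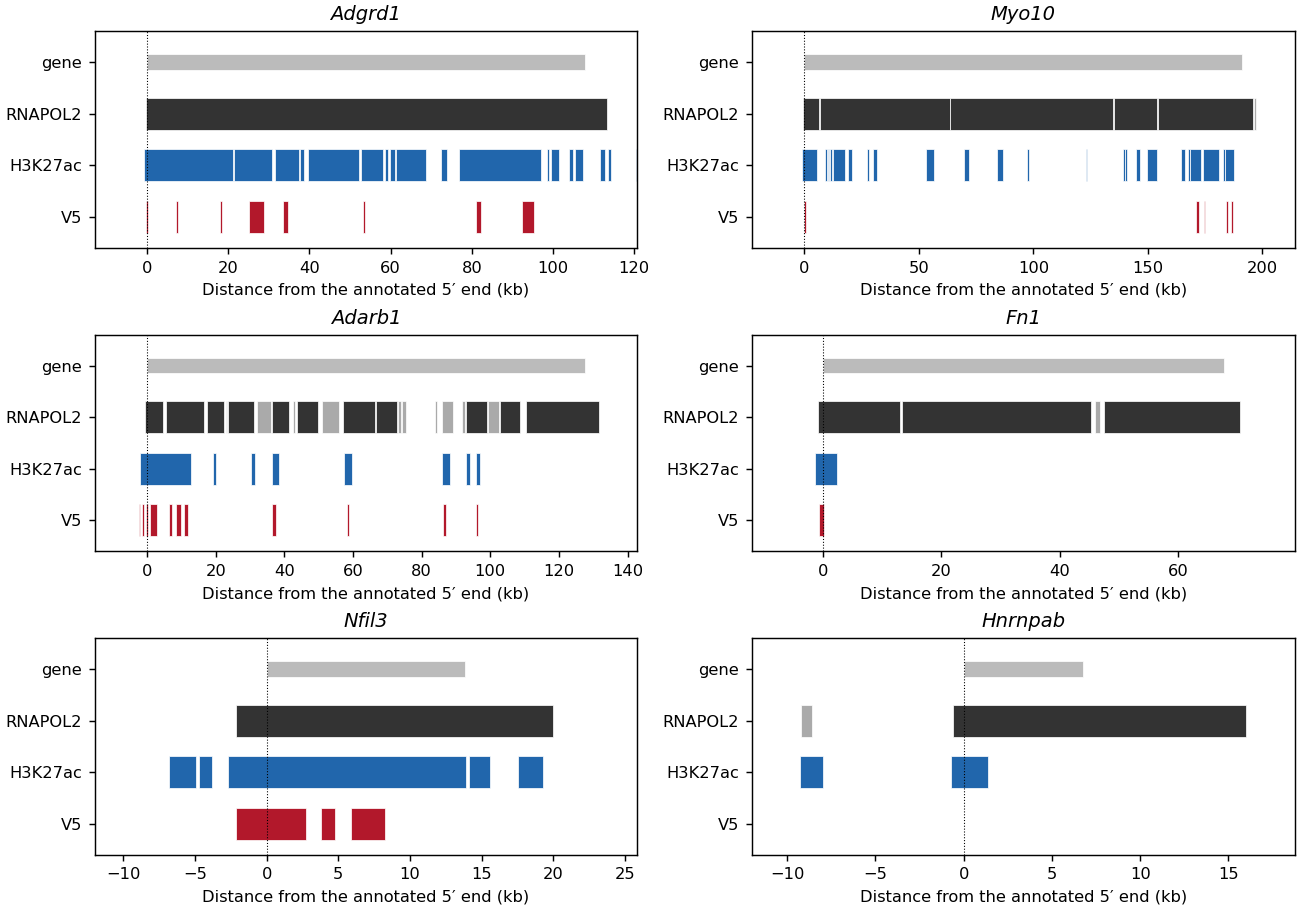
RNAPOL2, H3K27ac and V5 peaks along 6 main genes, drawn to scale by distance in kb from the annotated 5′ end (dotted line) in the direction of transcription, with the gene as a grey bar and RNAPOL2 peaks under 5 kb in lighter grey. RNAPOL2 runs along all or nearly all of Adgrd1, Myo10, Fn1, Nfil3 and Hnrnpab and most of Adarb1, whereas H3K27ac follows it along Adgrd1 and Nfil3 and stays near the start of Fn1 and Hnrnpab.

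Where a domain held the end of its main gene, which was so in 379, it extended past the annotated end by 2752 bp at the median, with quartiles of 1966 and 4246 bp, and by more than 5000 bp in 58. Among the 214 domains with an end but no start site, the longest extent was 32081 bp, at Frmd8. That domain (chr19:5817621-5852270) shared only 10% of Frmd8 and held the whole of the non-coding Neat1 gene, so the length does not describe Frmd8. The next were Mdfic at 15481 bp, Stx6 at 9744 bp and Nfe2l2, the oxidative stress factor NRF2, at 9432 bp. The reads carry no strand, and polymerase on a neighbouring or antisense gene cannot be told apart from polymerase of the main gene.

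The highest RNAPOL2 scores among long domains were not at the widest. The AP-1 gene Jund had a score of 18012 over 5460 bp, the replication-independent histone gene H3f3b 14824 over 5300 bp, the domain of Malat1 14247 over 12160 bp and Errfi1 12793 over 20700 bp. Each of these 4 domains held exactly 1 V5 peak, with V5 scores of 218, 279, 77 and 759 in that order, beside a median of 230 over all V5 peaks.

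Gene lists were then read for how many of their members were the main gene of a long domain, beside 2.28% of all coding genes and 4.42% of those with RNAPOL2 at a start site. The lists were drawn up from genes known to be strongly transcribed or discussed for this tumor, so a share above these values is not independent evidence about a pathway. Among immediate early and AP-1 genes, which respond to growth factor and stress signals within minutes, 13 of 29 had a long domain. Klf4, Junb, Fos, Btg2, Rhob, Jund, Ccn1, Ccn2 and Fosl2 were each covered whole, and Klf6, with 2 domains, over 97.4%. Nr4a3 was the widest of them at 39950 bp, covering 94.8% of the gene with a score of 1884. Of the 13, 11 had a V5 peak in the gene, beside 307 of all 500 main genes. Dusp1 had 7690 bp with a score of 7795, which was 7.45% of a gene that the annotation extends to 56539 bp.

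RNA-binding and splicing genes were the other list with a large share, 14 of 35. For 10 of these the domain held the end of the gene and no coding start site. Hnrnpab was covered whole within 16590 bp with a score of 7106 and an extent of 9259 bp past the gene. Ddx17 was covered over 56.8%, Srrm2 over 29.3%, Sfpq over 46.4% and Srsf3 over 39%. Scores were low in this list, at 212 to 912 in 12 of the 14, and above 5000 at Hnrnpab and Hnrnpa3.

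Cytoskeletal and adhesion genes numbered 8 of 30. Both cytoplasmic actin genes, Actb (8600 bp, score 10204) and Actg1 (7440 bp, score 8583), and the tubulin gene Tubb5 were covered whole without a V5 peak in the gene, whereas Plec, Lmna, Ahnak, Tpm4 and Vim were covered over 9.91 to 43.4%. In the extracellular matrix list 5 of 28 had a domain. Col1a1 was covered whole by 18880 bp with a score of 3415, Col1a2 over 87.6% by 33600 bp, Fn1 over 96.4% by 3 domains, Sparc over 44.2% and the collagen chaperone gene Serpinh1 over 31.6%. Of these 5 only Fn1 had a V5 peak in the gene, with a score of 277, beside 307 of all 500 main genes.

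The list of the ATF/CREB family, to which the DNA-binding part of the fusion belongs, also holds the coactivator genes Crebbp, Ep300, Crtc1, Crtc2 and Crtc3 and had 3 of 19. Nfil3 was covered whole by 22110 bp (chr13:52961101-52983210, score 6551) with 3 V5 peaks of up to 3115 and H3K27ac over 100% of the gene. Atf4, the regulator of the integrated stress response, was covered whole by 5780 bp with a score of 8445. Crem had 2 long domains of 7650 and 7040 bp over 11.8% of its 71701 bp, near its 3′ end, and the wider holds an annotated coding start site. The V5 peak within the wider had a score of 5143, and the highest V5 peak in Crem, 19716, lay outside both. Atf1 itself had an RNAPOL2 peak of 1490 bp, Creb1 one of 3450 bp and Creb5 19 peaks of up to 2550 bp with 17 V5 peaks, and none of these 3 had a long domain.

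Other growth and housekeeping lists had shares of 4.76 to 25%. Ribosomal protein genes numbered 6 of 40 (Rpl3, Rpl12, Rpl13a, Rpl7a, Rps6 and Rpl10a), all of whose 40 members had RNAPOL2 at a start site. Translation factors numbered 3 of 20, chaperones 3 of 20 with Hspa8 covered over 88.4%, and glycolysis and hypoxia genes 4 of 20, among which Vegfa was covered whole by 19440 bp with a score of 6396 and without a V5 peak. The ubiquitin, iron and housekeeping list had 6 of 24, with Txnip and Ftl1 among those covered whole. In the cell cycle list Ccnd2 and the inhibitor gene Cdkn1b had a domain, 2 of 20. Brd2 (15060 bp, score 10804) and Hexim1 were the 2 of 24 genes of polymerase elongation control, and Hist1h1c was the 1 of 21 replication-dependent histone genes. Replication-dependent histone genes lie in clusters and have near-identical copies, so reads could be split among them.

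Neural crest and mesenchymal transcription factors had 6 of 23. Sox9 and Sox11 were covered whole by 7170 and 11060 bp, with scores of 2247 and 2887. Prrx1, a homeobox gene of limb mesenchyme, had 4 domains over 54.7% of the gene and 6 V5 peaks, and Runx1 had 3 over 8.13% of 224684 bp. Of 20 melanocyte identity and pigment genes 0 had a long domain, which a list of this size cannot set apart from the 2.28% of all coding genes. No RNAPOL2 peak lay at a start site in 17 of these 20, whereas 11027 of all 21938 coding genes had one. Mitf had 1 RNAPOL2 peak of 600 bp with a score of 191, and Sox10 had none. Among mouse genes that the study singled out from these tumors, Nfil3, Fam43a, Junb, Crem, Fos and Runx1 had a long domain and Runx2, Nono, Mitf, Fosl1, Trp53, Sox10 and Tfap2a did not, a list that is not independent of these samples.

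**Figure D3:**
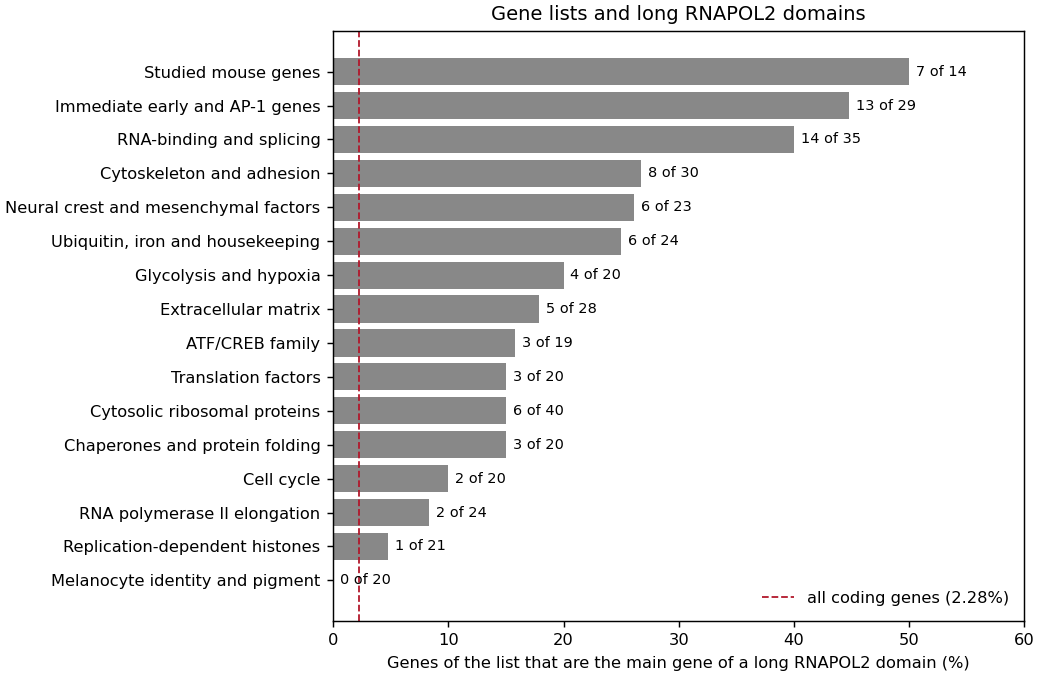
Bars give the percentage of each gene list whose members are the main gene of a long RNAPOL2 domain, with the counts at the bar ends and all coding genes (2.28%) as the dashed line. The immediate early and AP-1 list reaches 13 of 29 and the RNA-binding list 14 of 35. Melanocyte identity genes are at 0 of 20, which a list of this size cannot set apart from the dashed line.

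Markers of other cells that a limb tumor could hold were read in the same way, since bulk chromatin does not tell fewer cells of a type from less signal per cell. RNAPOL2 lay at a start site in 2 of 9 melanocyte lineage markers (Mitf and Pmel), 1 of 9 skeletal muscle markers (Mylpf), 3 of 9 immune markers (Cd68, Cd74 and Tyrobp), 2 of 6 endothelial markers, 3 of 7 fibroblast markers, 0 of 5 red blood cell markers and 1 of 3 keratinocyte markers. Over all coding genes it did so in 11027 of 21938. The muscle genes Acta1, Ckm, Myh1, Myh4, Des, Tnnt3, Myog and Myod1 had no RNAPOL2 peak in the gene. Long domains were found on 2 marker genes in all, Col1a1 and Col1a2 of the fibroblast list, while Dcn, Lum, Pdgfra and Postn of that list had no RNAPOL2 peak. The part of non-tumor cells in the collagen domains was not tested.

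Of the 57 domains without a coding gene, 25 held an annotated non-coding gene, 32 held no gene of any kind, and 24 lay within 10 kb past the end of a coding gene. The Malat1 domain (chr19:5792681-5804840) covered this abundant nuclear RNA whole with a score of 14247 and H3K27ac over 84.4% of the domain. Neat1, the scaffold RNA of paraspeckles, was covered whole by the domain of 34650 bp that also reaches the end of Frmd8, with a score of 8999, H3K27ac over 67.4% and 3 V5 peaks of up to 709. The widest without a coding gene, 54420 bp (chr6:31073011-31127430), covered 32.5% of Lncpint with a score of 774, 5 V5 peaks of up to 1426 and H3K27ac over 71.3%. Among 17 annotated nuclear lncRNAs and snoRNA hosts of the list, 5 were touched (Malat1, Neat1, Gas5, Snhg1 and Meg3). In all, 59 lincRNA genes were touched by 50 domains and 16 were covered whole.

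The small RNA genes came in hosts. The 48 snoRNA genes covered by long domains were all covered whole and lay in 14 domains, 10 of them in the domain of Gas5, a snoRNA host. GENCODE miRNA genes numbered 59 in 45 domains, and 45 of the 1005 precursors of the RefSeq table lay in 34 domains. The let-7b and let-7c-2 precursors lay at the 3′ end of a domain of 34970 bp (chr15:85675501-85710470, score 959) along the non-coding Lncppara, with H3K27ac over 71.8% and 2 V5 peaks. let-7i lay in a domain of 11470 bp with a score of 4018, H3K27ac over 45.7% and 1 V5 peak, and let-7d at the edge of one of 7430 bp with a score of 408 and no V5 or H3K27ac peak. All 3 thus run over precursors with the seed GAGGUAG.

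miR-29a and miR-29b, which are known for collagen and matrix targets, lay in a domain of 20700 bp (chr6:31052051-31072750, score 190) beside that of Lncpint. The miR-23b, miR-27b and miR-24-1 cluster lay inside the coding gene 2010111I01Rik in 16020 bp with a score of 356 and the miR-23a, miR-27a and miR-24-2 cluster in 9410 bp with a score of 1166, both without a V5 peak. miR-21a lay in the domain of 11950 bp at the end of Vmp1 (chr11:86576341-86588290, score 3375), where H3K27ac covered 100% and 1 V5 peak was present. miR-199a and miR-214, which are antisense to Dnm3, lay in 9880 bp with a score of 1956 and 2 V5 peaks. A domain shows polymerase over a precursor and gives no level of the mature RNA.

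H3K27ac was not a general property of these domains. Of the 736, 478 overlapped an H3K27ac peak by at least 1 bp (64.9%, interval 61.4 to 68.3), below the 72.5% of all RNAPOL2 peaks although a wider peak has more room to overlap. Measured by bases, 38.6% of the long domains lay in H3K27ac against 64% of the narrower RNAPOL2 peaks. A domain had H3K27ac over 28.2% of its length at the median, 88 had it over at least 90%, and the median was 49.3% when only RNAPOL2 peaks of the upper 50% by score were kept and 15.7% when only H3K27ac peaks of the upper 50% were kept.

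H3K27ac differed by the place of the domain on the gene. It overlapped 97.5% of those over a whole gene (interval 93 to 99.2), 81.8% of those with a start site (75.2 to 87), 58.1% of those within a gene (50.8 to 65.1) and 38.3% of those past a gene end (32.1 to 45). These intervals do not overlap, but part of this order follows from how the classes are defined. The first 2 hold a coding start site, and 98.4% of coding genes with RNAPOL2 at a start site had H3K27ac within 3 kb. The median share of the domain covered was 55%, 49.3%, 14.1% and 0% in that order, and 42.3% where no coding gene lay. In width, the share with H3K27ac was 74.1% at 500 to 1000 bp, 76.3% at 1000 to 2000 bp, 57% at 2000 to 5000 bp, 59.9% at 5000 to 10000 bp and 78.7% at 10000 bp and more, so it was lowest in the classes between 2000 and 10000 bp.

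Broad H3K27ac and broad RNAPOL2 met only in part. Of the 736 domains, 225 overlapped an H3K27ac peak that was itself 5 kb or wider (30.6%, interval 27.4 to 34), and 240 of the 938 such H3K27ac peaks overlapped a long domain (25.6%). When H3K27ac peaks up to 12000 bp apart were joined into clusters of at least 3, 43.1% of long domains lay on a cluster (39.5 to 46.7) against 28.4% of narrower RNAPOL2 peaks (27.8 to 29), and a wider region has more room to meet a cluster.

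**Figure D4:**
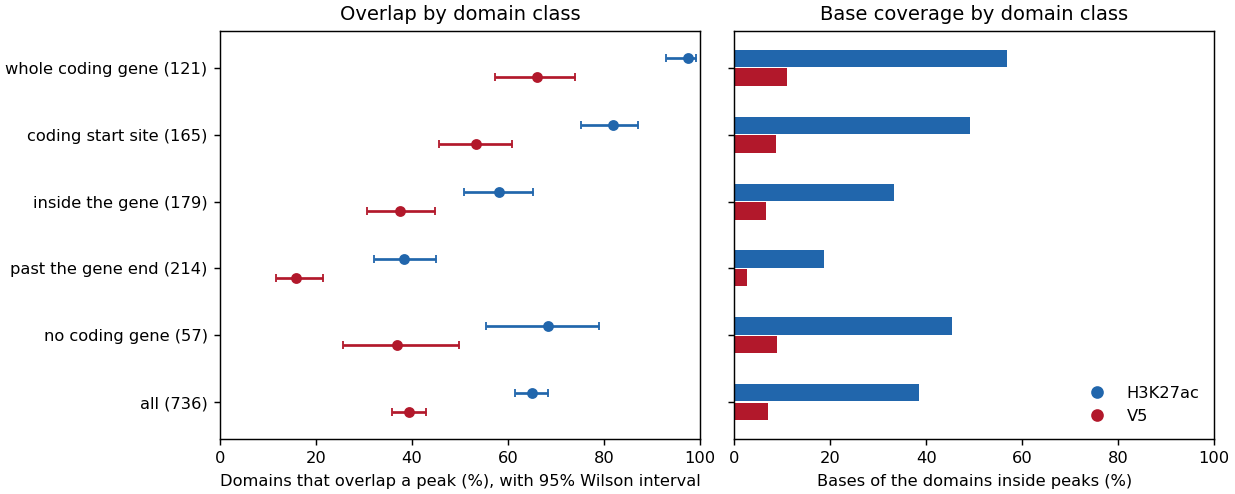
Long RNAPOL2 domains by their place on coding genes (number in brackets): the left panel gives the percentage that overlap an H3K27ac (blue) or V5 (red) peak with 95% Wilson intervals, and the right panel the percentage of their bases inside such peaks. Both marks are at their highest in domains over a whole coding gene (97.5% and 66.1%) and at their lowest past a gene end (38.3% and 15.9%).

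V5, the mark of the fusion, overlapped 290 of the 736 domains (39.4%, interval 35.9 to 43) beside 20.9% of all RNAPOL2 peaks. A wider peak has more room to overlap. In width, the share with V5 was 14% at 500 to 1000 bp, 27.8% at 1000 to 2000 bp and 26.8% at 2000 to 5000 bp. It was 32.5% at 5000 to 10000 bp and 58.4% at 10000 bp and more. By bases the order turned, with 7.08% of the long domains and 13.1% of the narrower RNAPOL2 peaks inside V5 peaks, and a V5 peak in a long domain was 830 bp wide at the median. Domains with V5 were wider, at 8335 bp against 6680 bp without, and a wider domain has more room for a V5 peak. Nearly all V5-bound domains had H3K27ac, with 285 holding both marks, 5 holding V5 alone and 253 holding neither. Keeping only V5 peaks of the upper 50% by score gave an overlap of 23.6%. The deposited V5 list is shorter than the largest set of V5 sites that the study describes, so the V5 shares here, those at start sites included, and every absence of a V5 peak refer to the deposited list alone.

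The order over the gene was like that of H3K27ac. V5 lay in 66.1% of domains over a whole gene (57.3 to 73.9), 53.3% at a start site (45.7 to 60.8), 37.4% within a gene (30.7 to 44.7) and 15.9% past a gene end (11.6 to 21.4), and in 36.8% of those without a coding gene (25.5 to 49.8). The intervals of the last 2 classes on genes do not overlap each other or those of the classes with a start site. Those over a whole gene or at a start site hold a coding start site by definition, so this order is not independent of the classes. Most V5-bound domains held 1 or 2 V5 peaks, 40 held at least 3 and 2 held at least 5, the most being 8 in the Adgrd1 domain.

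The 459 V5 peaks inside long domains had a median score of 228 (quartiles 100 and 600), beside 230 over all 10665 V5 peaks and 193 over the 4017 in narrower RNAPOL2 peaks. Of the 100 highest V5 peaks 12 lay in a long domain, and of the 1000 highest 63, which compares with 4.3% of the whole list. The highest was within Arfgef3, with a score of 17293 and the rank of 3 in the V5 list, in a domain of 10280 bp that lay 36443 bp from the nearest coding start site at the V5 peak. It was followed by V5 peaks in Cdon (7598), Rab3c (6779), the domain of Trafd1 (6437) and Adarb1 (6371). The RNAPOL2 domains around the V5 peaks of Arfgef3, Cdon and Rab3c had low scores, 258, 294 and 270, whereas that of Trafd1 covered the gene whole with 4150 and that of Adarb1 lay at the start site with 5398.

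A larger share of the V5 peaks in long domains lay near start sites than of all V5 peaks, though most lay away from them. Of the 459, 207 lay within 3 kb of a coding start site (45.1%, interval 40.6 to 49.7), against 30.8% of all V5 peaks (30 to 31.7), and 448 overlapped H3K27ac (97.6%). Pde4d carried 36 V5 peaks along the gene with a highest score of 4404, Adarb1 9, Auh 10 and Slc23a2 7, and 307 of the 500 main genes had at least 1 V5 peak in the gene.

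The motif of the ATF/CREB family, TGACGTCA, which reads the same on both strands, was found in 42 of the 459 (9.15%, interval 6.84 to 12.1). Among V5 peaks in narrower RNAPOL2 peaks it was found in 13.1% (12.1 to 14.2) and among all V5 peaks in 8.51% (8 to 9.06). In the central 200 bp of the peak, which takes peak width out, the shares were 5.66% (3.89 to 8.17) and 8.41% (7.6 to 9.31) for long domains and narrower peaks. The AP-1 motif TGAGTCA, searched on both strands, is not contained in the other and was found in 25.3% of those in long domains (21.5 to 29.4), 17.1% of those in narrower RNAPOL2 peaks (15.9 to 18.3) and 26% of all (25.2 to 26.9). Within long domains, peaks near a start site held TGACGTCA in 11.6% (7.92 to 16.7) and TGAGTCA in 20.3% (15.4 to 26.3), and peaks farther away in 7.14% and 29.4%. Among all V5 peaks near a coding start site the shares were 14.6% (13.4 to 15.9) and 12.5% (11.4 to 13.7). No share of TGAGTCA in the central 200 bp is given. Peak width, at medians of 830 bp in long domains and 740 bp in narrower peaks, may therefore enter its shares.

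Windows of equal size around start sites allow a comparison in which the width of the region is the same. The start site used was the most upstream with RNAPOL2, which for 224 of the 273 main genes with a start site inside a domain lay in the long domain itself. Of the 273, 166 had a V5 peak within 3 kb (60.8%, interval 54.9 to 66.4), beside 27.8% of all 11027 coding genes with RNAPOL2 at a start site and 26.9% of the 10754 others (26.1 to 27.8). With V5 peaks of the upper 50% by score only, the shares were 26.4% (21.5 to 31.9) and 11% (10.5 to 11.6). The difference was seen at every gene length: 60.3% against 25.4% for genes under 5 kb, 60.4% against 26.3% for 5 to 20 kb, 48.7% against 26.2% for 20 to 50 kb and 72% against 29.1% for longer genes. It moved with the RNAPOL2 score of the start site peak, and in the upper 10% of the list by score the shares were 76.8% (69.5 to 82.7) and 48.2% (46 to 50.4), at 50% to 90% they were 43.8% and 24.2%, and in the lower 50% they were 1 of 13 genes and 9.95%. The V5 scores at bound start sites were alike, with medians of 196 and 174 and quartiles of 84 to 511 and 85 to 469.

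H3K27ac lay within 3 kb of the start site in 95.6% of the main genes (92.5 to 97.5), slightly below the 98.5% of the others (98.2 to 98.7) and the 98.4% of all genes with RNAPOL2 at a start site. Its extent differed in the other direction. From the start site the H3K27ac peak reached 3240 bp into the gene at the median of 255 main genes (quartiles 1599 and 5306), and 976 bp in the 10390 others (726 and 1412), while upstream of the start it reached 1207 and 628 bp. At 135 of the 255 it went beyond 3 kb (52.9%) against 4.9% of the others. RNAPOL2 went still farther, at 5357 bp, and passed the end of the H3K27ac peak in 60% of main genes and 2.87% of the others, a value in which the choice by RNAPOL2 width has a direct part. Base composition around the start site was alike in both groups, with a GC content of 60.2% and 60.1% and an observed to expected CpG ratio of 0.724 and 0.762.

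**Figure D5:**
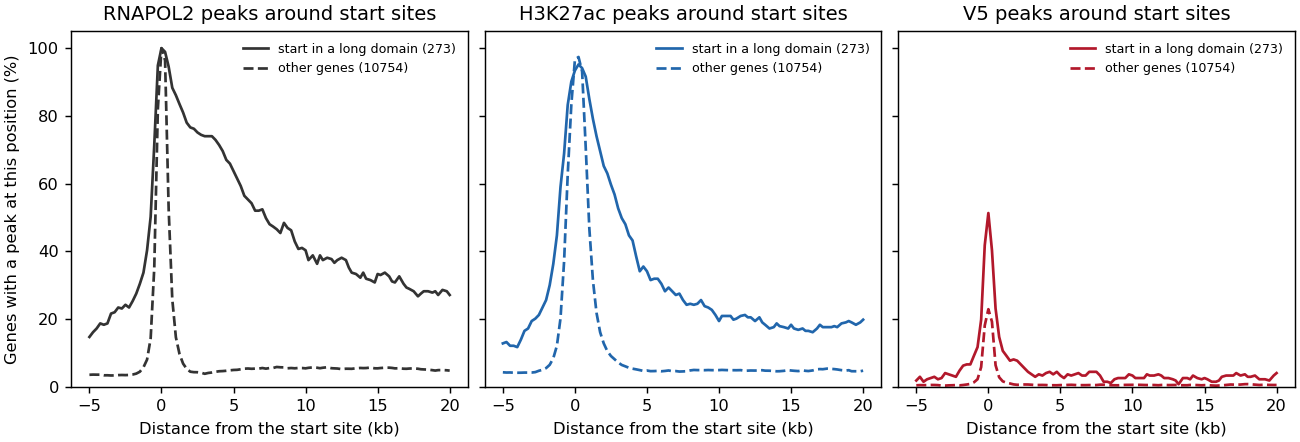
Percentage of genes with an RNAPOL2 (left), H3K27ac (middle) or V5 (right) peak at each distance in kb from the start site, positive in the direction of transcription, for 273 genes with a start site in a long domain (solid) and 10754 other genes with RNAPOL2 at a start site (dashed). At 5 kb into the gene 34.1% of the former and 4.78% of the latter lie in H3K27ac, and at the start site itself 51.3% and 22.9% lie in V5.

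The windows from 250 bases before to 50 bases after these start sites held TGACGTCA in 13 of 273 main genes (4.76%, interval 2.8 to 7.98) and in 3.79% of the others (3.45 to 4.17), and where V5 was near, in 12 of 166 (7.23%, 4.18 to 12.2) and 11.5% (10.4 to 12.7). Over all 32851 promoters of the same length in the RefSeq table the share was 1.79%.

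The domains were unevenly spread over chromosomes. Chromosome 13 had the largest share of its RNAPOL2 peaks in long domains, 55 of 859 (6.4%), and chromosome 10 had 68 of 1125 (6.04%), to which Pde4d with 13 and Adarb1 with 11 contributed. Chromosome X had 2 of 349 (0.573%, interval 0.157 to 2.07), at Tsc22d3 and Ddx3x, against 3.67% on the other chromosomes (3.41 to 3.93), and chromosome Y had 0 of 16. Exons filled 41.9% of the bases in a domain over a whole gene and 39.7% in one past a gene end at the median, against 4.17% in one within a gene.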

How the data were processed

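ChIP-seq of mouse tumors was deposited as 1 peak list for each of the V5, RNAPOL2 and H3K27ac antibodies. Per the labels and the study's methods, the authors aligned reads with BWA 0.7.10-r789 to mm10, removed duplicates with samtools, called peaks with MACS2 2.2.6 against input (broad mode for H3K27ac) and removed denylisted regions. The lists hold a score per peak as the authors deposited it, whose scale is not given in the sources used here. The study's methods describe averaging replicates for signal tracks, and whether replicates were pooled for the peak lists is not given in the sources used here. The study's methods name 5 V5 and 5 RNAPOL2 samples and the labels 4 of each. Peak coordinates are multiples of 10 bp and no peak was narrower than 500 bp, so widths are exact to that step. The study's methods give the same approximate sequencing depth for every sample, and the files give no depth for a library or a peak.

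Widths, overlaps (1 bp minimum) and base coverage were computed with Python 3.11.15, pandas 2.3.3 and pysam 0.24.0 after the code was tested on simulated regions. Genes came from GENCODE vM21, start sites from every coding transcript, and sequence from GRCm38. Shares carry Wilson 95% intervals, and neighbouring peaks are not independent. Gene spans follow the annotation, which includes read-through transcripts at some genes. Named genes were those of the 10 widest domains, the 5 highest RNAPOL2 scores, the 5 highest V5 peaks in a domain, the 5 longest genes covered whole, the 3 domains on either side of the threshold, list members (up to 5 per list by width, with others added after their values were seen), non-coding hosts and genes the study discussed. The domains and lists were chosen with earlier results of these data known. No test was run because each antibody has 1 list. The alternatives were the width threshold, joined gaps, required overlap, start site window and definition, score thresholds and motif window. The values of some genes that this rule names are not reported here.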

Additional observations from a re-analysis of the deposited data

How the results depend on the processing

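Each of 11 results was recomputed under up to 9 alternatives, and 39 of 62 values stayed within the 95% interval of the reported value (for the number of domains, within 1.5 times). None of the values is a signed difference, so none could change direction. With RNAPOL2 peaks of the upper 50% by score there were 448 domains, of which 57.8% held a coding start site, 26.3% a whole gene, 82.1% H3K27ac and 52.9% V5, with a median gene share of 31.6% and a median H3K27ac cover of 49.3%. With the upper 50% of H3K27ac and V5 peaks the overlaps were 52.2% and 23.6%, the H3K27ac cover 15.7%, V5 near the start site 26.4% and TGACGTCA 12.7%. Joining gaps gave 45.1% with a start site and 21.9% with a whole gene, and the annotated 5′ end alone gave 29.5% with a start site. At 4000 bp the whole-gene share was 13.3%, the gene share 14.8%, H3K27ac 60.3% and V5 33.6%, and at 6000 bp H3K27ac was 69.8% and V5 44.8%. Requiring 50% of the peak gave 60.1% for H3K27ac, and the central 200 bp gave 5.66% with TGACGTCA. By construction fewer peaks enter under the score alternatives and at 6000 bp and more at 4000 bp, and for the others the cause was not tested. No paired analysis was possible because each antibody has 1 list without values per replicate, and for the same reason no replicate could be left out. The files give no depth for a library or a peak, which limits what an absent peak can show.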
